A study of Mus musculus with 21 samples.

Results

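Imprinted genes are the subject here: 52 genes of 19 imprinted domains, whose regions were found in 4 tables of differential DNA methylation by exact match of the gene symbol that the tables assign to each region. Of 49307 listed regions, 72 carried the name of a member, at 29 of the 52 genes and in 15 of the 19 domains. The tables hold only regions that the authors listed as differing between a pair of groups, so a member without a region has no value here. Not every listed region has an authors' adjusted p under 0.05. The cells were fibroblasts grown from the joint lining (synovium) of mice of CBA x C57BL/6J background, used at passages 4 to 5. The 21 samples formed 7 groups of 3: Tg197 and wild-type (WT) cells from mice aged 3, 8 and 11 weeks, and TNF-treated WT cells from mice aged 8 weeks. The Tg197 line has a human TNF transgene that causes chronic arthritis, and the WT groups lack it. The dose and duration of TNF, the sex of the mice and the number of animals behind a sample do not appear in the labels. The p-values therefore speak of the spread among these samples, part of which may be technical.

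An imprinted gene is transcribed mainly from 1 parental copy. The choice is written as DNA methylation on 1 parental copy of a control region, set in the germ line and kept through the divisions of body cells, often at the start of a non-coding RNA that silences its neighbours. Several members, among them Slc22a2, Slc22a3, Ppp1r9a, Asb4 and Calcr, are known to be imprinted only in some tissues, such as placenta or brain. In MethylCap-seq, fragments of DNA with methylated CpG are pulled down on a protein that binds them and are then sequenced, so the reads of a region follow its methylation and its number of CpG together. The values do not separate the parental copies.

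The starts of 4 of the genes with a listed region within 3 kb of a start are shown first, because capture depends on the number of CpG. Other such genes, among them Impact and Gnas, are not shown. The RefSeq promoters (GRCm38.p6, a later build than the mm9 of the tables, 250 bases before to 50 after the start) are printed 5′ to 3′ along the gene, with every CpG in capitals. Peg3 lies at chr7:6730370-6730669 on the minus strand, Magel2 at chr7:62376729-62377028 on the plus strand, Plagl1 at chr10:13090582-13090881 on the plus strand and Kcnq1ot1 at chr7:143296498-143296797 on the minus strand.
Peg3: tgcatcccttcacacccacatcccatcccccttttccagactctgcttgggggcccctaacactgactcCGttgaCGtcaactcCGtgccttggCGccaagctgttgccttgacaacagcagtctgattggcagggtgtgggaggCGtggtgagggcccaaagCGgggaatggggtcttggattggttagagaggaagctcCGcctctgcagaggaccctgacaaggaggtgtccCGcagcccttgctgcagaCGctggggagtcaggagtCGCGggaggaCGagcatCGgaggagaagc
Magel2: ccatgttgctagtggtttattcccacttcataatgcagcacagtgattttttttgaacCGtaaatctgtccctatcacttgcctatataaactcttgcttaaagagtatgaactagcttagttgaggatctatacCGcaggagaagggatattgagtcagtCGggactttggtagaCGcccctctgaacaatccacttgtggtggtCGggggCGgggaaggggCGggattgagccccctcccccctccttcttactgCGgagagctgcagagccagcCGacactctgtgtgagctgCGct
Plagl1: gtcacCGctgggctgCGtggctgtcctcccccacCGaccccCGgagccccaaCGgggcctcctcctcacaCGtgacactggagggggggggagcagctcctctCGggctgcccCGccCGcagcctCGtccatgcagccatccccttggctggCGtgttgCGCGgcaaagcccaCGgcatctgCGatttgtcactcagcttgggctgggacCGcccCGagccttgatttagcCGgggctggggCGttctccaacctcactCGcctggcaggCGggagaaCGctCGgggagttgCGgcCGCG
Kcnq1ot1: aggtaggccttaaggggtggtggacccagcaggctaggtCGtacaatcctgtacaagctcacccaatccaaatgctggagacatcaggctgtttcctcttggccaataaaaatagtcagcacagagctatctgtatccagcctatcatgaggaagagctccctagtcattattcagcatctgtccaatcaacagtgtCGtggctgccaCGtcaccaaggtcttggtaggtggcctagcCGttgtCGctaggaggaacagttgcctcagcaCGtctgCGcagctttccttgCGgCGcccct
The Plagl1 window held 26 CpG, a number reached by 16.9% of all 32851 promoters of the table. Peg3 held 13 (reached by 37.9%), Magel2 10 (43.5%) and Kcnq1ot1 9 (45.8%). Promoters were found for 42 of the 52 members, 23 of them among the 29 with a listed region. Over the 64 promoters of those 42 genes the median was 12 CpG, against 7 over all promoters. The letters TGCCGC, the hexamer that the imprint-keeping protein ZFP57 binds when it is methylated, were searched on both strands. They occurred in 15 of the 64 member promoters (23.4%) and in 3813 of all promoters (11.6%). The hexamer itself holds a CpG, and member promoters held more CpG at the median, so these shares are not matched for CpG number. Several of the promoters belong to the same gene, and the difference was not tested. Among the 4 sequences shown, Plagl1 held 1 match and the other three none. These counts describe the letters and not binding. Of the 4 listed regions, only that of Magel2, from 513 to 14 bp before the start, overlaps the window shown. That of Peg3 begins 79 bp beyond the start, that of Plagl1 758 bp and that of Kcnq1ot1 1401 bp beyond it.

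Each library held 2230884 to 2875554 recovered reads in listed regions at 3 weeks, 695108 to 1143699 at 8 weeks, 385155 to 544797 at 11 weeks and 1285306 to 1858694 in the TNF table. The values of TNF-treated libraries 1 and 2 were the same at each of 16898 regions, so they counted once: the TNF group had n = 2 and every other group n = 3. DNA methylation gives no expression level, so the cell type could not be checked by marker expression. Regions at 11 macrophage and osteoclast genes numbered 4, 2, 1 and 4 at 3, 8 and 11 weeks and with TNF, of which 0, 0, 1 and 1 gained and 4, 1, 0 and 3 lost capture. Of the 7 synovial fibroblast genes, 1 had a region at 3 weeks, at 8 weeks and with TNF, each lost, and none had one at 11 weeks. By the same test 40.3%, 17.4%, 49.7% and 29.8% of all regions gained and 44.7%, 36.6%, 28.2% and 64.1% lost capture. On the sex chromosomes, all 29 Y regions at 3 weeks were listed as lower in Tg197 and 926 of 981 X regions at 8 weeks as higher. All members are autosomal, and the part of these shifts in the members' values was not tested.

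Values are normalized reads per region, as the authors scaled them. A region was called gained or lost where limma, fitted to log2(value + 1) of every region of its table, gave an adjusted p under 0.05 after Benjamini-Hochberg adjustment over the table. Fold changes are differences on that log2(value + 1) scale with their standard errors, Tg197 or TNF-treated minus WT, and they understate changes at low values. Every test is a retest of regions that had already been selected for a difference. Means are over libraries, with their SD, in the order treated, then WT, and coordinates of listed regions are of mm9 as deposited.

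At 3 weeks the tables held 20 regions at 15 members, at 8 weeks 18 at 10, at 11 weeks 14 at 13 and with TNF 20 at 12. At 3 weeks 6 were called gained and 12 lost, together 18 of 20, where 40.3%, 44.7% and together 85.0% of all regions were. At 8 weeks 2 were gained and 8 lost (17.4% and 36.6% of all regions), at 11 weeks 6 and 4 (49.7% and 28.2%), and with TNF 6 and 14 (29.8% and 64.1%). The authors' lists had 13, 8, 8 and 14 member regions as lower, or 65.0%, 44.4%, 57.1% and 70.0%, against 56.6%, 51.5%, 45.8% and 66.2% of all regions. They had 7, 10, 6 and 6 as higher, against 43.4%, 48.5%, 54.2% and 33.8% of all regions. Direction varied with read level in these tables. Among other regions of the same WT level (20 equal classes), 63.9%, 60.1%, 58.1% and 77.0% were listed as lower. The share of imprinted regions listed as lower thus stood next to that of regions of equal WT level at 3 and 11 weeks, and below it at 8 weeks and with TNF. Matched on the mean of all libraries instead, the other regions had 64.9%, 59.5%, 54.0% and 70.1%, so that the share with TNF stood next to it. No test was made of these differences.

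**Figure D1:**
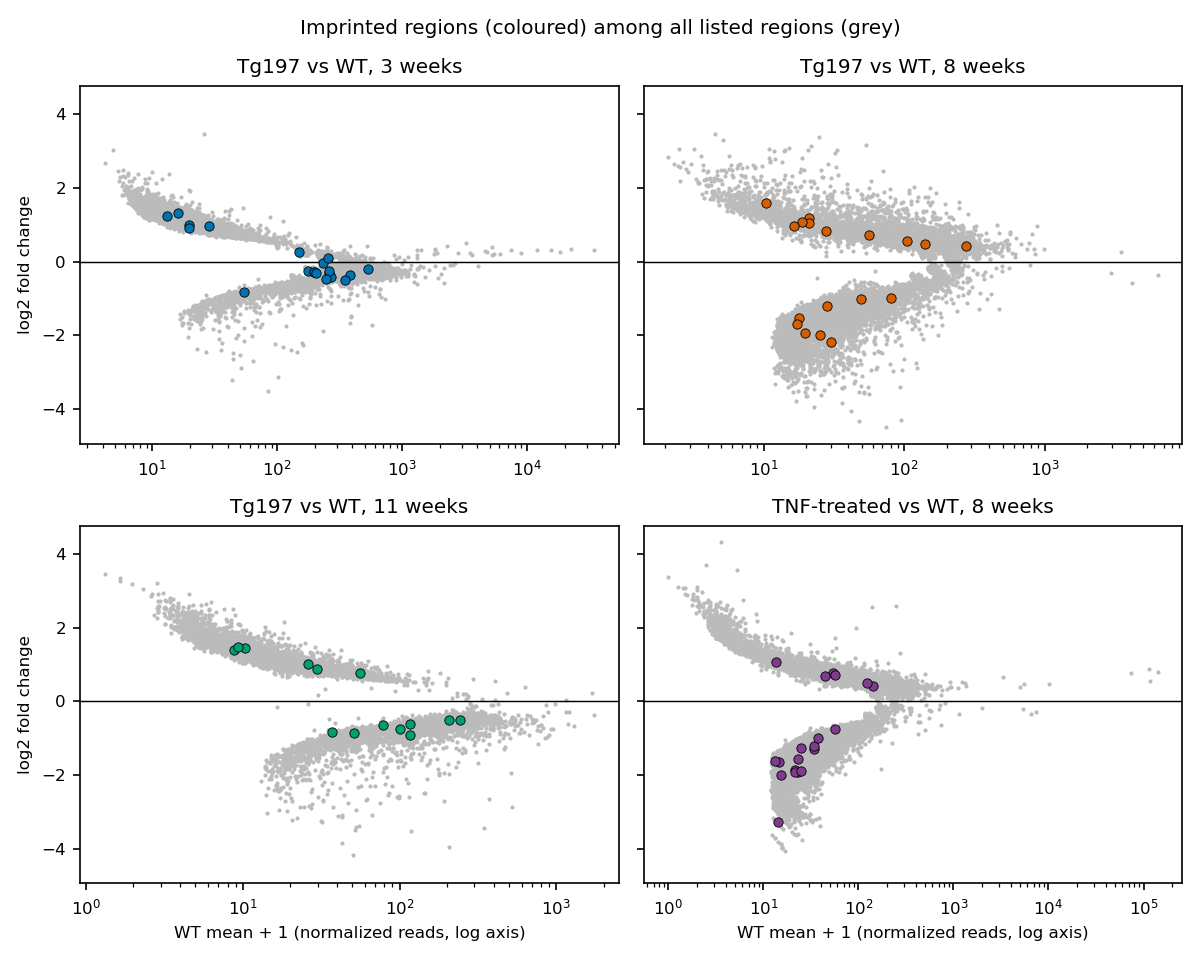
log2 fold change of every listed region (grey) and of the imprinted regions (coloured) against the WT mean plus 1 in normalized reads (log axis), one panel per table. The imprinted regions lie within the clouds of all regions at every level: 20 points at 3 weeks, 18 at 8 weeks, 14 at 11 weeks and 20 with TNF.

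The median log2 fold change of the imprinted regions was -0.25 at 3 weeks, against -0.12 over all regions, and 0.45 at 8 weeks against -0.22. It was -0.50 at 11 weeks against 0.76, and -1.27 with TNF against -1.08. Such medians mix a gained and a lost set of unlike size. Within the lost set the members' medians were -0.31, -1.61, -0.69 and -1.63, against -0.26, -1.42, -0.75 and -1.40 over all regions. Within the gained set they were 0.96, 0.90, 1.21 and 0.71, against 0.99, 0.69, 1.22 and 0.67. None of the 72 regions was intergenic. Regions within 3 kb of a start made up 6 of 20 at 3 weeks (30.0%), 2 of 18 at 8 weeks (11.1%), 3 of 14 at 11 weeks (21.4%) and 0 of 20 with TNF. Among all regions placed at a start or in a gene body, which are those that can carry a gene's name in this way, the shares were 10.7%, 16.0%, 11.5% and 10.9%. The members' share thus stood above that of all such regions at 3 and 11 weeks and below it at 8 weeks and with TNF, on few regions and without a test.

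Directions in these tables depend on how libraries were scaled. With libraries rescaled to equal medians over the listed regions, the fold changes of the tables shifted, at the median, by 0.26 at 3 weeks, 0.15 at 8 weeks, -0.38 at 11 weeks and 0.98 with TNF. The share of gains among all calls then moved from 47.4% to 84.9%, from 32.3% to 41.7%, from 63.8% to 37.8% and from 31.7% to 86.8%. The members' calls became 8 gained and 1 lost, 6 and 6, 2 and 8, and 6 and 2. This rescaling sets equal the medians of regions that had all been selected for a difference. It takes out any shift of those medians by construction, also one in methylation, and so does not show which scaling is right. A loss or gain is therefore relative to the authors' scaling throughout.

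**Figure D2:**
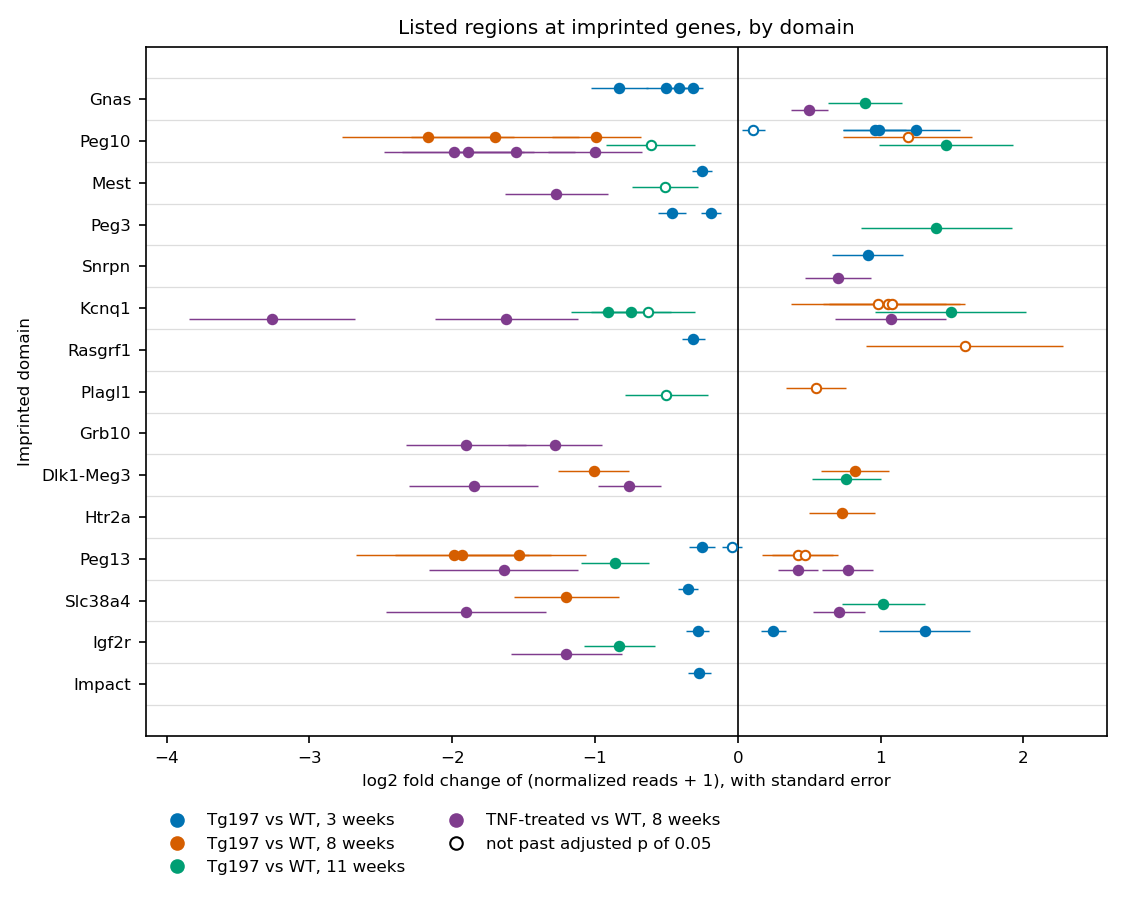
log2 fold change with its standard error for all 72 regions, by imprinted domain and coloured by table. Filled points passed an adjusted p of 0.05. At 3 weeks all 4 Gnas regions lie below 0 and all 4 Peg10 regions above it. Over the tables, the Gnas, Peg10, Kcnq1, Peg13 and Slc38a4 domains, among others, hold points on both sides.

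At 3 weeks, regions at the starts of Peg3, Impact and Gnas lost capture in Tg197 cells, with fold changes of -0.27 to -0.50, and the Magel2 and Slc22a2 promoter regions gained 0.91 and 1.31. All 4 regions of the Gnas domain were lost and 3 regions in Ppp1r9a were gained. In both directions the Tg197 and WT libraries did not overlap at any called region. Such separation was seen at 12 lower and 6 higher members, against 45.5% and 40.6% of all regions. WT library 1 was the highest WT library at 10 of the 13 member regions listed as lower, and at 64.0% of all regions so listed.

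Peg3 encodes a zinc-finger protein made from the paternal copy, and its start is the control region of its domain. The region at chr7:6682551-6683050 (mm9), from 79 to 578 bp beyond the Peg3 start, had 178, 177 and 175 normalized reads in the Tg197 libraries and 293, 219 and 226 in the WT libraries. Means were 177 ± 1.61 and 246 ± 40.8 (SD, n = 3 each), the log2 fold change was -0.46 ± 0.10 and the limma adjusted p was 0.00179. All 3 Tg197 libraries lay close together and under every WT library, and without WT library 1 the fold change was -0.33. Its neighbour Zim1, a maternally expressed zinc-finger gene, had 474, 468 and 458 against 579, 530.3 and 491 in a region 18392 bp beyond the start, a fold change of -0.19 (limma adjusted p 0.0201). That call was lost without Tg197 library 2, Tg197 library 3 or WT library 1 (limma adjusted p 0.0525, 0.0535 and 0.0785). By the authors' own adjusted p the Zim1 region did not pass 0.05, while 19 of the 20 member regions at 3 weeks did.

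Impact, a paternally expressed regulator of the kinase GCN2, has its control region around its first exon and intron. The region from 391 to 890 bp beyond its start had 166, 156 and 168 in Tg197 and 213, 186 and 192 in WT, with means of 163 ± 6.79 and 197 ± 14.5. Capture fell by 0.27 ± 0.08 (limma adjusted p 0.00763), and all Tg197 values lay under all WT values.

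The Gnas domain makes, from overlapping transcripts, the stimulatory G-protein subunit and several imprinted products, among them the antisense RNA Nespas. At chr2:174153901-174154500, 487 to 1086 bp beyond the start of a non-coding Gnas transcript that itself starts 2178 bp before a coding one, values were 257, 238 and 223 in Tg197 and 465, 264 and 311 in WT. The means were 239 ± 17.3 and 347 ± 105, a fold change of -0.50 ± 0.14 (limma adjusted p 0.00402). A second region at chr2:174124801-174125300, 1442 to 1941 bp beyond the start of a longer Gnas transcript, had 199, 188 and 205 against 348, 245 and 209, a fold change of -0.41 ± 0.13. WT library 1 was far above the other WT libraries at both. Without it the fold changes were -0.26 and -0.20, and both calls held (limma adjusted p 0.00546 and 0.0361). In the body of Nespas, at chr2:174112001-174112650, values of 217, 209 and 199 stood against 274, 245 and 256, a fold change of -0.31 ± 0.07. At chr2:174113201-174113800, values of 30.2, 25.5 and 32.6 stood against 49.8, 56.1 and 53.4, a fold change of -0.83 ± 0.20 (limma adjusted p 0.00242). The reads are of captured DNA and not of transcripts. Since genes of the domain overlap, the name given to a region is 1 of several that its position allows. Of the 12 members called lost at 3 weeks, this second Nespas region was the only one that kept its call after rescaling to equal medians, and 4 regions changed sign there, 2 in Trappc9 and 1 each in Copg2 and Zim1.

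Magel2, a paternally expressed gene of the Prader-Willi domain that acts in protein sorting, gained capture at 3 weeks just before its start. At chr7:69521351-69521850 the Tg197 libraries had 36.7, 32.1 and 38.6 and the WT libraries 18.8, 22.6 and 14.8. Means were 35.8 ± 3.35 and 18.7 ± 3.93 and the fold change was 0.91 ± 0.25 (limma adjusted p 0.00361). No other gene of that domain (Snrpn, Ndn, Mkrn3, Peg12, Ube3a) had a listed region in any table.

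In the Igf2r domain, the organic cation transporter gene Slc22a2 had 32.4, 37.7 and 37.6 against 11.3, 25.3 and 9.09 at chr17:12775051-12775850, from 2003 to 1204 bp before its start. The fold change was 1.31 ± 0.32 (limma adjusted p 0.00265), with every Tg197 library above every WT library. Its sister gene Slc22a3 had 172, 166 and 188 against 161, 144 and 137, a fold change of 0.25 ± 0.09. That call was lost without Tg197 library 3 or WT library 3 (limma adjusted p 0.0879 and 0.0729). Igf2r, the maternally expressed receptor that removes IGF2, moved the other way in a region 64571 bp beyond its start, with 168, 166 and 153 against 186, 206 and 199, a fold change of -0.28 ± 0.08.

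Ppp1r9a encodes neurabin, an actin-binding protein, and belongs to the Peg10 domain. Its first region, at chr6:4925051-4925650, had 32.4, 24.5 and 30.7 in Tg197 and 7.51, 16.3 and 12.5 in WT, a fold change of 1.25 ± 0.31. The second, at chr6:5038401-5039300, had 42.1, 62.2 and 59.3 against 27.2, 30.8 and 23.9, a fold change of 0.96 ± 0.22. The third, at chr6:5050651-5051200, had 37.8, 38.7 and 36.6 against 15.0, 24.4 and 17.0, a fold change of 0.99 ± 0.25. All 3 gains lay deep in the gene body, and Tg197 and WT libraries did not overlap at any of them. Calcr, the calcitonin receptor gene of the same domain, did not pass the test, with a fold change of 0.11 ± 0.08. It was 0.06 without Tg197 library 1 or WT library 2, and after rescaling to equal medians it was 0.37 and called gained (limma adjusted p 0.000946).

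The remaining regions at 3 weeks had high values in both groups. Copg2, a coat-protein gene that overlaps the imprinted Mest locus, had 218, 212 and 225 against 273, 256 and 251, a fold change of -0.25 ± 0.07. Slc38a4, a paternally expressed amino acid transporter, had 322, 290.4 and 291 against 405, 376 and 368, a fold change of -0.35 ± 0.07 (limma adjusted p 0.00172). Rasgrf1, a paternally expressed exchange factor for RAS, had 161, 175 and 158 against 201, 202 and 212, a fold change of -0.31 ± 0.08. The Tg197 libraries lay under all WT libraries in these 3 regions. Trappc9, a trafficking-complex gene whose intron holds Peg13, had 149, 142 and 145 against 185, 177 and 160.2 at chr15:72690551-72691050, a fold change of -0.25 ± 0.09 that lost its call without WT library 1 (-0.21, limma adjusted p 0.0516). Its other region had 209.5, 224 and 238 against 240.4, 231 and 222. The groups overlapped there, and the fold change was -0.04 ± 0.07. The authors list this region as lower in Tg197, while after rescaling to equal medians it was called gained, at 0.22 (limma adjusted p 0.0156).

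**Figure D3:**
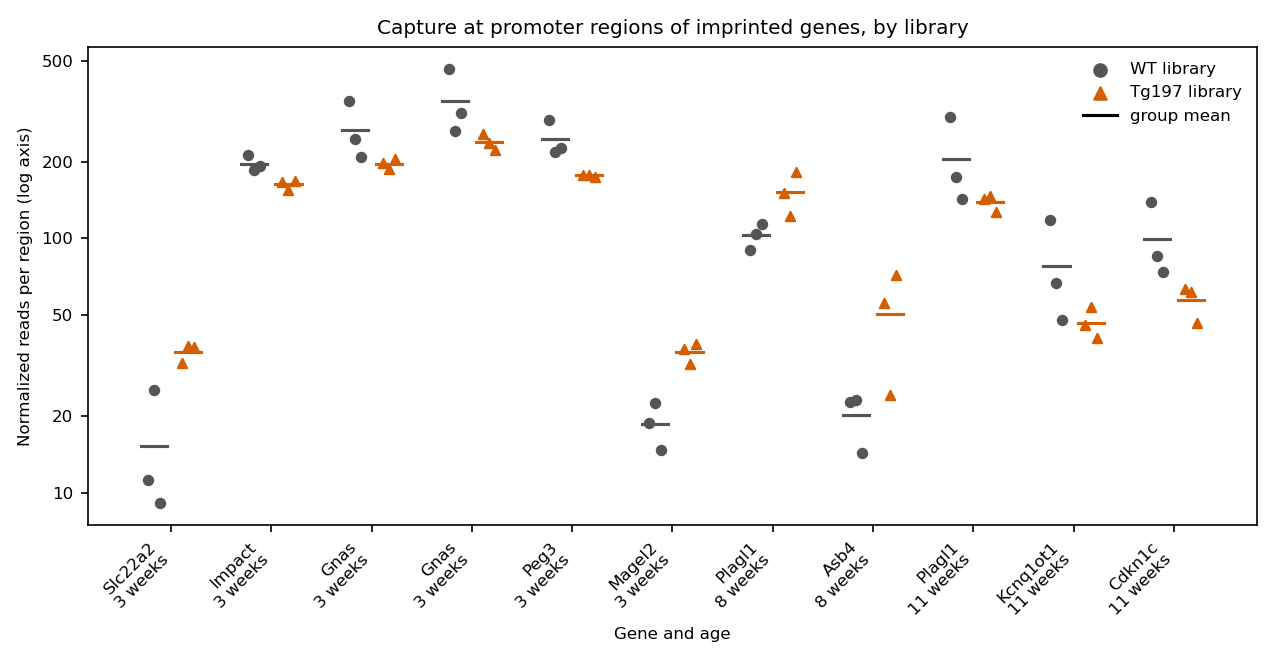
Normalized reads per region (log axis) in each WT library (circles) and Tg197 library (triangles) at the 11 imprinted regions within 3 kb of a start, with group means as bars. At 3 weeks the groups separate at all 6 regions; at 11 weeks 1 WT library stands above the other WT libraries at Plagl1, Kcnq1ot1 and Cdkn1c.

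At 8 weeks, gene-body regions of Ppp1r9a, Trappc9, Slc38a4 and Meg3 lost capture in Tg197 cells, with fold changes of -0.99 to -2.17, and 1 region each of Meg3 and Htr2a gained. Both promoter regions, at Plagl1 and Asb4, and all 3 Kcnq1 regions had higher values in Tg197 but did not pass the test on the authors' scaling. Groups did not overlap at 6 higher and 8 lower members, against 27.2% and 42.3% of all regions. Tg197 library 2 was the lowest Tg197 library at 9 of the 10 member regions listed as higher and at 74.4% of all such regions. WT library 3 was the lowest WT library at 6 of the 8 listed as lower and at 77.8% of all such regions. Every call at 8 weeks was lost when Tg197 library 1, Tg197 library 3, WT library 1 or WT library 2 was left out, with 11, 9, 9 and 7 members at an unadjusted limma p under 0.05. Those fits called 0 of all 11975 regions, with 6662, 5945, 4497 and 4382 at an unadjusted limma p under 0.05. Without Tg197 library 2, 9 members were gained and 8 lost, and without WT library 3, 1 was gained and 4 lost. Of all regions 8849 and 5061 were called there, against 6470 with all libraries.

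Ppp1r9a held the largest loss among the members at this age. At chr6:5038301-5039100 the Tg197 libraries had 3.98, 11.1 and 2.94 and the WT libraries 30.4, 43.5 and 14.4, with means of 6.00 ± 4.42 and 29.4 ± 14.6. The fold change was -2.17 ± 0.60 (limma adjusted p 0.0428). A second region, at chr6:5052001-5052500, had 1.33, 8.30 and 5.88 against 19.4, 16.5 and 13.3, a fold change of -1.70 ± 0.59 on few reads that was -1.11 without Tg197 library 1. Farther on, at chr6:5089751-5090300, values of 46.4, 53.3 and 25.0 stood against 75.3, 79.4 and 84.0, a fold change of -0.99 ± 0.31. No library of one group reached those of the other at these 3 regions. The promoter region of Asb4, a neighbouring gene for an ankyrin-repeat protein, had a mean of 50.7 ± 24.3 against 20.1 ± 5.00 and a fold change of 1.19 ± 0.45 (limma adjusted p 0.0554); it was called without Tg197 library 2 (limma adjusted p 0.0170).

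Trappc9 had 4 regions at 8 weeks, of which 3 were lost. At chr15:72577251-72577950, values of 2.65, 3.46 and 7.35 stood against 21.1, 21.0 and 14.4, a fold change of -1.93 ± 0.47. At chr15:72591851-72592650, values of 2.65, 8.30 and 5.88 stood against 16.9, 18.0 and 15.5, a fold change of -1.53 ± 0.47. At chr15:72691051-72691600, values of 10.6, 6.23 and 1.47 stood against 30.4, 30.7 and 12.2, a fold change of -1.99 ± 0.68 (limma adjusted p 0.0451). This last stretch begins where the lost 3-week Trappc9 region ends. At the fourth, Tg197 libraries of 261, 150.2 and 184 overlapped WT libraries of 138, 128 and 151, and the fold change of 0.47 ± 0.23 did not pass. It was 0.26 without Tg197 library 1, and 0.66 and called without Tg197 library 2 (limma adjusted p 0.0269). Kcnk9, a potassium channel gene of the same domain, had a fold change of 0.42 ± 0.25 and did not pass either; it was 0.16 without Tg197 library 1.

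Meg3, the maternally expressed long non-coding RNA of the Dlk1-Meg3 domain, was split. At chr12:110786601-110787450, 2994 to 3843 bp beyond its start, Tg197 libraries had 21.2, 26.3 and 23.5 and WT libraries 53.3, 50.9 and 42.0, a fold change of -1.01 ± 0.25. At chr12:110799751-110800250, 16144 bp beyond the start, they had 42.4, 54.0 and 48.5 against 28.8, 25.5 and 26.5, a fold change of 0.82 ± 0.24. Both had a limma adjusted p of 0.0428, the smallest that any member reached at 8 weeks, and at both the groups were clear of each other. Slc38a4 had 7.95, 15.2 and 11.8 against 23.7, 27.7 and 30.9, a fold change of -1.20 ± 0.37. Htr2a, a serotonin receptor gene, had 99.4, 71.3 and 113 against 56.6, 51.7 and 58.6, a fold change of 0.73 ± 0.23. After rescaling to equal medians, Slc38a4 and the Ppp1r9a region farthest from the start lost their calls (limma adjusted p 0.0556 and 0.0639), while Asb4 (1.33), Rasgrf1 (1.72) and the first 2 Kcnq1 regions (1.19 and 1.22) were called gained (limma adjusted p 0.0443 each).

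At several 8-week regions listed as higher, Tg197 library 2 was the lowest Tg197 library. It lay within the WT range at Rasgrf1 and at the Kcnq1 regions after the first. Rasgrf1 had 54.3, 9.00 and 51.5 against 6.76, 10.5 and 11.1, a fold change of 1.59 ± 0.69 (limma adjusted p 0.0781) and 2.40 and called without Tg197 library 2 (limma adjusted p 0.0159). Kcnq1, the voltage-gated potassium channel gene whose intron contains the start of Kcnq1ot1, had 37.1, 27.0 and 73.5 against 16.1, 21.7 and 22.1 at its first region, a fold change of 1.05 ± 0.41. Its second had 42.4, 19.4 and 64.7 against 22.0, 18.0 and 13.3, and the one farthest from the start 33.1, 12.5 and 70.6 against 14.4, 20.2 and 12.2, with fold changes of 1.08 ± 0.48 and 0.98 ± 0.61. Tg197 library 3 was highest in all 3 Kcnq1 regions, and without it the fold changes were 0.65, 0.69 and 0.40. Without Tg197 library 2 they were 1.36, 1.54 and 1.60, and all 3 were called (limma adjusted p 0.0267, 0.0194 and 0.0250). Plagl1, a paternally expressed zinc-finger gene, had 151, 122 and 182 against 90.5, 104 and 114 at chr10:12811351-12811850. There every Tg197 library was above every WT library, and the fold change of 0.55 ± 0.21 missed the threshold (limma adjusted p 0.0541), while it passed without Tg197 library 2 (limma adjusted p 0.0199).

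At 11 weeks, a region 2054 to 2603 bp beyond the start of the growth inhibitor Cdkn1c lost capture in Tg197 cells. Regions in Kcnq1, Airn and Trappc9 did so too, and the fold changes of these losses were -0.75 to -0.91. Gains of 0.76 to 1.49 were called in Meg3, Gnas, Slc38a4, Ppp1r9a, Usp29 and Osbpl5. Groups did not overlap at 5 higher and 6 lower members, against 49.4% and 34.3% of all regions. Tg197 library 3 was the highest Tg197 library at 5 of the 6 gained members and at 71.5% of all regions listed as higher, and WT library 1 the highest WT library at 5 of the 8 listed as lower and at 71.8% of all such. All calls of members were lost without Tg197 library 1, Tg197 library 3 or WT library 2, with 10, 7 and 10 at an unadjusted limma p under 0.05. The same fits called 10, 0 and 0 of all 7309 regions, with 5125, 4638 and 5186 at an unadjusted limma p under 0.05. Of the members, 3 were gained and 3 lost without WT library 1, 5 and 7 without WT library 3, and 5 and 3 without Tg197 library 2. Those fits called 5015, 5511 and 4818 of all regions, against 5694 with all libraries.

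The Kcnq1 domain changed at several places. Cdkn1c encodes the maternally expressed cell-cycle inhibitor p57. The region at chr7:150644351-150644900, 2054 to 2603 bp beyond its start, had 63.0, 61.9 and 46.6 in Tg197 and 139, 85.6 and 74.1 in WT, with means of 57.1 ± 9.19 and 99.5 ± 34.5. The fold change was -0.75 ± 0.28 (limma adjusted p 0.0345), and without WT library 1 it was -0.48 and not called (limma adjusted p 0.0661). Kcnq1ot1 is the paternally expressed non-coding RNA that silences this domain, and its start is the control region. Its region, at chr7:150480551-150481050, lies outside the naming rule and was singled out after its values were seen. It had a mean of 46.6 ± 6.73 against 77.7 ± 36.5. The fold change of -0.63 ± 0.33 did not pass (limma adjusted p 0.0952), with WT library 1 at 118, the other WT libraries at 67.0 and 47.8 and the Tg197 libraries at 45.5, 53.8 and 40.5. Without that library the fold change was -0.28, and without WT library 3 it was -0.93 and called lost (limma adjusted p 0.0364). In the body of Kcnq1, at chr7:150561551-150562400, values of 81.4, 59.6 and 45.7 stood against 114, 101 and 131, a fold change of -0.91 ± 0.26 (limma adjusted p 0.0219) with no overlap. Osbpl5, which encodes a lipid-transfer protein, had 24.7, 11.4 and 47.4 against 6.80, 5.58 and 12.7, a fold change of 1.49 ± 0.53 although 1 Tg197 library lay within the WT range.

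Among the other domains at 11 weeks, Airn, the non-coding RNA that silences Igf2r, had 19.1, 21.8 and 18.97 against 35.4, 37.2 and 36.0 in its body at chr17:12959351-12960050, a fold change of -0.83 ± 0.25. Trappc9 had 25.5, 29.8 and 26.7 against 51.7, 55.8 and 43.9 at chr15:72483951-72484750, a fold change of -0.86 ± 0.24. Both separated the groups. The Airn region also lies inside the overlapping gene Igf2r, a few kb beyond the Igf2r start. It cannot be given to one of the pair. Gnas had 48.7, 48.1 and 64.7 against 25.8, 36.3 and 24.4 at chr2:174142651-174143450, a fold change of 0.89 ± 0.26. Meg3 had 76.6, 125 and 85.3 against 55.8, 55.8 and 52.6, 7194 bp beyond its start, a fold change of 0.76 ± 0.24 (limma adjusted p 0.0222). Slc38a4 had 51.1, 38.9 and 66.4 against 20.4, 24.2 and 30.2, a fold change of 1.02 ± 0.29. In these 3 regions every Tg197 library exceeded every WT library. Usp29, a paternally expressed ubiquitin protease gene next to Peg3, had 17.6, 11.4 and 49.1 against 5.44, 10.2 and 7.80, a fold change of 1.39 ± 0.53. Without Tg197 library 3 it was 0.82 and not called. After rescaling to equal medians, the calls at Meg3, Slc38a4, Gnas and Usp29 were lost, while those at Ppp1r9a and Osbpl5 held.

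Some 11-week regions did not pass. Plagl1 had 143, 147 and 127 against 301, 174 and 143 at the same stretch as at 8 weeks, a fold change of -0.50 ± 0.29 (limma adjusted p 0.126), and -0.19 without WT library 1. Without WT library 3 it was -0.72 and called lost (limma adjusted p 0.0465). Copg2 had 177, 153 and 172 against 296, 234 and 195, a fold change of -0.51 ± 0.23 (limma adjusted p 0.0649), and -0.65 and called lost without WT library 3 (limma adjusted p 0.0398). Ppp1r9a had 71.0, 77.9 and 63.8 against 177, 80.0 and 90.6 at chr6:4896401-4896900, a fold change of -0.61 ± 0.31, and -0.27 without WT library 1. Tg197 and WT libraries overlapped at Plagl1 but not at Copg2 or this part of Ppp1r9a. The other Ppp1r9a region, at chr6:5045751-5046300, was gained, with 27.9, 13.7 and 48.3 against 6.80, 8.38 and 12.7 and a fold change of 1.46 ± 0.47. It was not called without WT library 1 (1.28, limma adjusted p 0.0531). After rescaling to equal medians, Plagl1, Kcnq1ot1, Copg2 and the first of these Ppp1r9a regions were called lost (limma adjusted p 0.0444, 0.0359, 0.0312 and 0.0336).

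With TNF added to WT cells, all 20 member regions were called, where 93.8% of all regions were. Losses covered Ddc, Meg3, Mirg, Copg2, Slc22a3, Slc22a18, 4 regions of Ppp1r9a and 1 each of Trappc9, Slc38a4 and Kcnq1, and gains Gnas, Magel2, Slc38a4, Kcnq1 and 2 of Trappc9. The 14 lost and 6 gained members separated the groups, as 63.5% and 32.3% of all regions did. WT library 3 was the lowest WT library at 11 of the 14 lost members and at 72.4% of all lost regions. These WT libraries are the same samples as in the 8-week Tg197 comparison, normalized anew, so both comparisons share them. Without TNF-treated library 1, with 1 TNF-treated sample left and assumed to vary as the WT samples, 3 members were gained and 9 lost. After rescaling to equal medians, which moved the fold changes by 0.98 at the median, only Slc22a18 and 1 Ddc region stayed lost and a Meg3 region changed sign.

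Slc22a18, a maternally expressed transporter gene of the Kcnq1 domain, was almost without reads after TNF. The 2 TNF-treated samples had 1.00 and 0 normalized reads at chr7:150679151-150679650, or 1 read in all, and the WT libraries 18.8, 12.2 and 8.60, or 45 reads. The ratio was 0.0404, with an exact 95% interval of 0.00100 to 0.237. That interval takes each read as independent and leaves out the spread between samples. It is too narrow where both reads of a pair were counted. The fitted change of -3.26 ± 0.58 depends on the added 1. In Kcnq1, TNF-treated values of 1.99 and 4.96 stood against 13.7, 11.4 and 11.1 at chr7:150566651-150567150, a fold change of -1.62 ± 0.50. At chr7:150514051-150514900, 31.9 and 22.3 stood against 13.7, 15.2 and 8.60, a fold change of 1.07 ± 0.39 (limma adjusted p 0.0232). Both Kcnq1 calls were lost without TNF-treated library 1 (limma adjusted p 0.0629 and 0.134).

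Ddc, the dopa decarboxylase gene next to Grb10, had 6.97 and 3.72 against 23.1, 22.9 and 19.7 at chr11:11732801-11733500, a fold change of -1.90 ± 0.42 (limma adjusted p 0.0109). Its region nearer the start had 14.9 and 11.2 against 42.8, 30.5 and 27.0, a fold change of -1.28 ± 0.33. Grb10 itself, a growth-restraining adaptor, had no listed region in any table. Meg3 had 29.9 and 34.7 against 51.4, 63.2 and 51.6 at chr12:110788101-110788600, a fold change of -0.76 ± 0.22 that was -0.65 and not called without TNF-treated library 1 (limma adjusted p 0.0517). Mirg, a maternally expressed microRNA host of the same domain, had 5.97 and 3.72 against 14.6, 26.7 and 19.7, a fold change of -1.85 ± 0.45. TNF-treated values were below all WT values at these 4 regions.

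In Ppp1r9a all 4 regions were lost. At chr6:4966151-4966650, values were 6.97 and 6.20 against 18.0, 30.5 and 17.2 (-1.55 ± 0.41), and at chr6:5026951-5027450 they were 1.99 and 3.72 against 12.8, 11.4 and 18.4 (-1.99 ± 0.49). At chr6:5038401-5038900 they were 7.96 and 3.72 against 26.5, 28.9 and 16.0 (-1.89 ± 0.46), and at chr6:5045501-5046250 they were 15.9 and 18.6 against 34.2, 50.3 and 25.8. There capture fell by 1.00 ± 0.33, a change that was not called without TNF-treated library 1 or WT library 2 (limma adjusted p 0.0739 and 0.0884). Copg2 had 9.95 and 8.68 against 24.8, 27.4 and 19.7, a fold change of -1.27 ± 0.36 far from the Copg2 stretch listed at 3 and 11 weeks. Slc22a3 had 10.9 and 16.1 against 41.1, 39.6 and 19.7, a fold change of -1.20 ± 0.39, not called without TNF-treated library 1, WT library 1 or WT library 2.

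Trappc9 and Slc38a4 changed both ways with TNF. In Trappc9, values of 95.6 and 84.3 stood against 57.4, 47.2 and 52.8 at chr15:72420701-72421600, a fold change of 0.77 ± 0.18. At chr15:72662751-72663250 they were 188 and 188 against 134, 127 and 163, a fold change of 0.42 ± 0.14. At chr15:72776801-72777300 they were 1.99 and 6.20 against 14.6, 15.2 and 11.1, a fold change of -1.64 ± 0.52. Of these the last 2 lost their call without TNF-treated library 1 or WT library 2, the loss then being -1.01 or -1.56, and the gain of 0.42 also without TNF-treated library 3. In Slc38a4, 83.6 and 100.4 stood against 57.4, 52.6 and 56.5, 46436 bp beyond the start (0.71 ± 0.18), and 6.97 and 2.48 against 23.1, 28.2 and 9.83, 3486 bp beyond it (-1.90 ± 0.56). The second of these was not called without TNF-treated library 3, at -1.30. Gnas had 167 and 182 against 126, 114 and 130.2 at chr2:174171301-174171800, a fold change of 0.50 ± 0.13 (limma adjusted p 0.0109). Magel2 had 84.6 and 59.5 against 36.8, 44.9 and 49.1, 3487 bp beyond its start, a fold change of 0.70 ± 0.23 that was 0.45 and not called without TNF-treated library 1 (limma adjusted p 0.149).

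**Figure D4:**
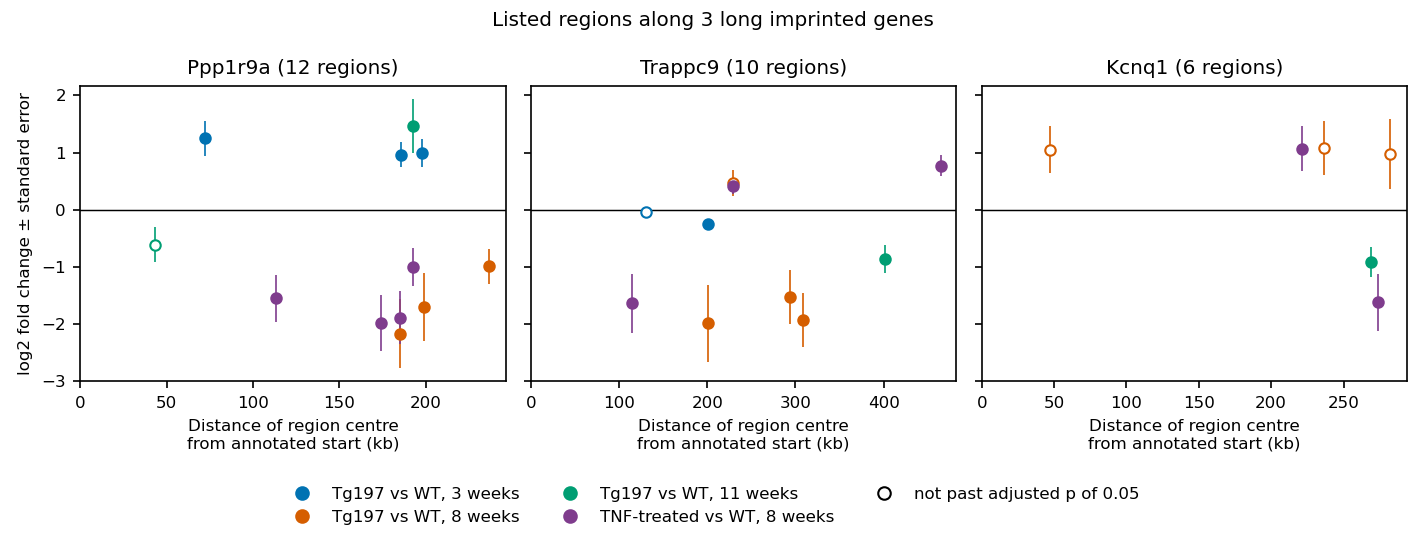
log2 fold change with its standard error of each listed region against its distance in kb from the annotated start, in Ppp1r9a (12 regions), Trappc9 (10) and Kcnq1 (6), coloured by table; open points did not pass an adjusted p of 0.05. Around 186 kb into Ppp1r9a the 3-week point lies at 0.96 and the 8-week and TNF points lie at -2.17 and -1.89.

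Few stretches recurred between tables. With an overlap of at least 1 bp, 7 pairs of member regions coincided. In Ppp1r9a the 3-week gain of 0.96 shared 700 bp with the 8-week loss of -2.17 and 500 bp with the TNF loss of -1.89, and the 11-week gain of 1.46 shared 500 bp with the last TNF loss of that gene. The WT means at the first stretch were 27.3 at 3 weeks, 29.4 at 8 weeks and 23.8 in the TNF table, and the treated means 54.6, 6.00 and 5.84. Since the tables were normalized separately, only directions within a table can be set side by side. Copg2 shared 300 bp between 3 weeks (-0.25, called) and 11 weeks (-0.51, not called), with lower Tg197 values at both ages. Plagl1 had the identical region at 8 weeks (0.55) and 11 weeks (-0.50), and neither passed the test with all libraries. The Trappc9 stretch at 8 weeks (0.47, not called) and with TNF (0.42, called), and the Ppp1r9a losses at 8 weeks and with TNF, rest on the same WT samples. No difference between ages was tested across tables.

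Over the 4 tables, the Peg10 domain held most regions, 14, of which Ppp1r9a had 12 (4 called gained and 7 lost). The Peg13 domain held 11, of which Trappc9 had 10, and the Kcnq1 domain 10. Gnas held 6, and Dlk1-Meg3, Igf2r and Slc38a4 held 5 each. Long genes thus made up much of the list, and the number of regions was not set against gene length. The H19-Igf2, Nnat, Nap1l5 and Zrsr1 domains had no listed region. Regions at genes expressed from the paternal copy were called 1 gained and 6 lost of 7 at 3 weeks, 0 and 1 of 3 at 8 weeks, 2 and 1 of 5 at 11 weeks and 2 and 3 of 5 with TNF. Those at genes expressed from the maternal copy were 5 and 4 of 11, 2 and 7 of 15, 3 and 3 of 8, and 3 and 11 of 14, with Gnas, which is maternal in some tissues, counted in neither. Over all regions 40.3% and 44.7%, 17.4% and 36.6%, 49.7% and 28.2%, and 29.8% and 64.1% were gained and lost in the same order of tables. Classes of 3 to 15 regions allow no reading against these shares. The difference between these classes was not tested.

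Genes outside the members were counted from fixed lists. At 33 further imprinted genes, 4 regions were gained and 6 lost of 13 at 3 weeks, 2 and 2 of 6 at 8 weeks, 5 and 2 of 10 at 11 weeks, and 4 and 13 of 17 with TNF. At 20 genes that keep or erase imprints, such as DNA methyltransferases, TET enzymes, Trim28 and Zfp57, 6 regions were gained and 6 lost of 12 at 3 weeks, 0 and 5 of 6 at 8 weeks, 3 and 3 of 6 at 11 weeks, and 0 and 8 of 10 with TNF. Losses outnumbered gains over all regions as well at 8 weeks (36.6% lost, 17.4% gained) and with TNF (64.1% and 29.8%), as they did slightly at 3 weeks (44.7% and 40.3%), while gains did at 11 weeks (49.7% and 28.2%). These counts describe methylation at the genes and not their activity.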

How the data were processed

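MethylCap-seq was run on 21 samples in 7 groups of 3. Per the labels' protocols, DNA was sonicated, captured with a methyl-CpG-binding protein kit at low and high salt with both fractions combined, and sequenced as paired reads. The submitters' processing notes name mm9 as the build and list BWA, TopHat, TopHat2, Cufflinks and Cuffdiff without saying what each did. How the groups were compared to list regions is not given in the sources used here.

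Per the file headers, each deposited table gives for every region the mean signal of both groups, computed by the authors, and the 3 library values of a group packed in 1 cell. The deposited log2 fold change and the deposited p-value of each region and of its best window are the authors' own, and no window p exceeds 0.0001. All listed regions were at least 500 bp long (median 550 bp). Nothing ties a position in the cell to a replicate number, and libraries are named by position. No column was left out (0 columns).

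Each table was fitted alone with limma 3.58.1 (R 4.3.3, trended variance) on log2(value + 1), with no filter on low values, Benjamini-Hochberg adjustment over the table and a threshold of 0.05. On simulated data, a log2 fold change of 1 was recovered in 93% of changed regions at 3 weeks, 17% at 8 weeks, 35% at 11 weeks and 52% with TNF. A change of 2 was recovered in 100%, 94%, 98% and 100%. Only 100 regions per table were changed at each size, far fewer than were called in the real data, so these shares do not carry over directly. Tables were normalized separately. TNF-treated libraries 1 and 2 were identical and entered as 1. Whole reads were recovered from the step of each library (within 0.1 for at least 99.98% of values). Of low read numbers, 57.0% to 68.4% were even, as when the 2 reads of a pair each count. An interval that takes reads as independent covers counting error at most, and may be too narrow for that. Depth outside the listed regions is unknown.

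The members and gene lists were chosen with earlier results of these data known. Domain and expressed copy of each gene come from textbook knowledge. Library values are given for regions of genes listed in 2 or more tables, called regions and regions within 1 kb of a start; Asb4, Calcr, Kcnk9 and Kcnq1ot1 fall outside this rule. The lists named are macrophage and osteoclast, synovial fibroblast, imprint maintenance and erasure, and further imprinted genes. Alternatives were other pseudocounts (0.1 and 5), a filter on a mean of 10, limma voom on recovered reads, the authors' adjusted p, adjustment over all windows, a minimum log2 fold change of 1, rescaled libraries, other classes of read level and leaving out each library. Python 3.11.15 with pandas 2.3.3 and scipy 1.17.1 was used for counts.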

Additional observations from a re-analysis of the deposited data

Results flagged for a closer look

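In Ppp1r9a, stretches that share 700 bp had a Tg197 minus WT log2 fold change of 0.96 at 3 weeks, with every Tg197 library above every WT library, and of -2.17 at 8 weeks, with every Tg197 library below every WT library. The opposite directions drew attention to it. At 8 weeks the Tg197 values were only 3.98, 11.1 and 2.94. The 8-week call was lost without Tg197 library 1, Tg197 library 3, WT library 1 or WT library 2 (limma adjusted p 0.0731, 0.0891, 0.131 and 0.134). The difference between the ages was not tested, since the tables were normalized separately.

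At the region 758 to 1257 bp beyond the start of Plagl1, the log2 fold change was 0.55 at 8 weeks and -0.50 at 11 weeks, with every Tg197 library above the WT mean at the former age and below it at the latter. Neither passed the test in its table with all libraries, and Tg197 and WT libraries overlapped at 11 weeks. Of the fits that left out 1 library, only 1 at each age gave a call. These were 0.69 without Tg197 library 2 at 8 weeks and -0.72 without WT library 3 at 11 weeks. Without WT library 1, the highest at 11 weeks, the fold change at that age was -0.19. The difference between the ages was not tested.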

How the results depend on the processing

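Pseudocounts of 0.1 and 5, a filter on a mean of 10, limma voom and the TNF fit that kept both identical libraries left the direction of every imprinted region as reported. With a pseudocount of 0.1 no member was called at 8 weeks, 0 gained and 0 lost, with 13 at an unadjusted limma p under 0.05. Over all 11975 regions 0 were called as well, with 7511 at an unadjusted limma p under 0.05. Adjusted over the windows implied by the authors' p and q-values (at least 902000, 761000, 749000 and 817000 at 3, 8 and 11 weeks and with TNF), limma called 0 gained and 0 lost members in every table, with 18, 13, 10 and 20 at an unadjusted p under 0.05; over all regions it called 24 at 3 weeks and 0 in the other tables. With libraries rescaled to equal medians, gained and lost members were 8 and 1, 6 and 6, 2 and 8, and 6 and 2, and the median fold changes were 0.01 at 3 weeks, -0.89 at 11 weeks and -0.31 with TNF. Single regions then changed sign at Trappc9 (0.01, and 0.22 with a call as gained), Copg2 (0.01) and Zim1 (0.07) at 3 weeks and at Meg3 (0.24) with TNF. By the authors' adjusted p under 0.05, 10 members were gained at 8 weeks and 8 lost at 11 weeks. With a minimum log2 fold change of 1, 2 were gained and 0 lost at 3 weeks, 0 gained at 8 weeks, 0 lost at 11 weeks and 1 gained with TNF. Called losses of -1.01 to -2.17 at 8 weeks lay beyond that minimum. So did called gains of 1.02 to 1.49 at 11 weeks and losses of -1.20 to -3.26 with TNF. Leaving out 1 library at a time gave 5 to 6 gained and 10 to 12 lost at 3 weeks, 0 to 9 and 0 to 8 at 8 weeks, 0 to 5 and 0 to 7 at 11 weeks, and 3 to 6 and 9 to 14 with TNF; the Trappc9 region that was not called at 3 weeks ranged from -0.09 to 0.00, the latter without Tg197 library 1. The cause was not tested for any of these. No paired analysis was possible because the library values packed in a cell carry no replicate numbers; the fit with the replicate number as a block was not run. Low values limit most 8-week and TNF losses, where treated libraries held few reads.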
